A study of Homo sapiens with 9 samples.

Results

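Homologous recombination repairs DNA breaks by copying an intact sister DNA, and the Fanconi anemia pathway removes cross-links that hold the DNA strands together. In recombination, broken ends are trimmed, BRCA1 and its partners prepare them for strand exchange, further proteins carry the strand into the matching duplex, and joined DNA molecules are then separated. In the Fanconi pathway a multi-subunit core complex with the E2 enzyme UBE2T attaches ubiquitin to FANCI and FANCD2 at stalled replication forks. Both processes act mainly in cells that copy their DNA, and losses in them are known from ovarian cancer.

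A list of 32 genes of these pathways was followed in HeyA8 cells, out of 18354 genes with a named probe on the arrays. The list was given by name, and where a gene had several probes the brightest on average was taken. Of the 32 genes, 25 had a named probe, and 22 passed the filter on dim probes, a mean above 7.46. NBN, RAD50 and FANCM lay below the filter in all groups and were not tested. BRCA2, BRIP1, XRCC2, RBBP8, FANCA, FANCD2 and FANCF were not analysed here.

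HeyA8, spelled Hey8A in some labels, is an established human ovarian cancer line, and its RNA was measured on Illumina bead arrays in 3 groups of 3 arrays. The first group was coculture without glutamine, in which cancer-associated fibroblasts sat on inserts above the cancer cells from day 1 after seeding. The second was monoculture without glutamine and the third monoculture in complete medium. In all groups the medium was changed on day 4 and the cells were taken 24 h later, so all 3 share the line, the culture time and the fresh medium. The labels name neither the source of the fibroblasts nor any difference between the 3 samples of a group beyond a number, so p-values reflect no more than the spread of these arrays, possibly technical. No coculture in complete medium was analysed here.

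The deposited levels are on a log2-like scale with a floor near 7.39, whose upper edge was put at 7.47, and arrays had nearly the same distribution (medians from 7.4706 to 7.4731). Differences are thus relative to the other probes, folds assume a log2 scale, and a difference to a level near the floor is understated. Arrays of a group correlated at r of at least 0.9959 across probes. Of the 12 ovarian cancer and epithelial markers, PAX8, KRT7, KRT8 and KRT18 lay well above the floor, with levels in complete medium from 8.95 for KRT18 to 11.06 for KRT8. MSLN stood at 8.23 in complete medium. KRT19, EPCAM, WT1 and CLDN4 lay at or near the floor, with group means from 7.37 to 7.80, and CDH1, MUC16 and CLDN3 were below the filter in every group. Genes often used as loading standards differed too: of 8 tested, 5 were lower without glutamine, 2 higher, with a median log2 difference of -0.251. Of all tested genes 24.3% were lower and 30% higher. The differences of the loading standards ran from -1.82 for TUBB to 0.22 for GAPDH, with ACTB at -0.18.

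The monocultures without and with glutamine were set against each other to see how the genes differ after 24 h of deprivation. Most recombination and Fanconi genes with a measurable level were lower without glutamine and none was higher. The strand-pairing factor RAD51AP1 was 6.37-fold lower, the Fanconi E2 enzyme UBE2T 4.90-fold lower and MND1, a strand exchange factor, 3.94-fold lower. Of 22 tested members, 19 fell and 0 rose at an adjusted p under 0.05 (limma, Benjamini-Hochberg over 10862 genes), where 54.3% of all tested genes were called, 24.3% lower and 30% higher. In the same 19 members every array without glutamine lay below every array in complete medium, which held for 26.2% of all tested genes, while 0 members lay wholly above (32.3%). At a fold of at least 1.5, 12 members fell and 0 rose, against 6.31% and 6.57% of all tested genes. The median log2 difference was -0.678 over the tested members and 0.0151 over all tested genes. BLM, GEN1 and FANCB passed the filter although their means without glutamine lay under it, so these counts and medians are descriptions of the genes that passed. In RNA from whole cultures, fewer cells that copy DNA and less of each RNA per cell cannot be told apart.

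The promoters of the 4 members with the largest falls and of the 2 tested members with the smallest differences are shown for description only. Each is the RefSeq window of GRCh38.p14 from 250 bases before to 50 bases after the gene's start, read 5′ to 3′ on the gene's strand. Capitals mark matches on either strand to 5 short motifs, the E2F-type TTTCGCGC, TTTGGCGC and TTTCCCGC, the CHR-type TTTGAA and the NF-Y-type CCAAT, all known from promoters of genes of dividing cells. The windows of RAD51AP1 (chr12:4538640-4538939, plus strand), UBE2T (chr1:202341887-202342186, minus), MND1 (chr4:153344438-153344737, plus) and FANCG (chr9:35079893-35080192, minus) come first. Those of RAD51D (chr17:35119709-35120008, minus) and FANCC (chr9:95317660-95317959, minus), which differed by less than the arrays of a group did, follow.
RAD51AP1: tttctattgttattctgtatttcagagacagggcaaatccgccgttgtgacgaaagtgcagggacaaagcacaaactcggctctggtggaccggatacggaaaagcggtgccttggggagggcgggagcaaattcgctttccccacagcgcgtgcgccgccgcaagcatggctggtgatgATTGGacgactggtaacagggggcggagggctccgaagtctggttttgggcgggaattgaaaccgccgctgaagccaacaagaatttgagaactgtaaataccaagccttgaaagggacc
UBE2T: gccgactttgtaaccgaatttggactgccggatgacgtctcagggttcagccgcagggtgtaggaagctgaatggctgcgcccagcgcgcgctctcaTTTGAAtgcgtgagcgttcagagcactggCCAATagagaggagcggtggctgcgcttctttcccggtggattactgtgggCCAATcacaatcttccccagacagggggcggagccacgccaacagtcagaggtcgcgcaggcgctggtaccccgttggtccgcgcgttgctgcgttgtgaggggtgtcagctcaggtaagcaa
MND1: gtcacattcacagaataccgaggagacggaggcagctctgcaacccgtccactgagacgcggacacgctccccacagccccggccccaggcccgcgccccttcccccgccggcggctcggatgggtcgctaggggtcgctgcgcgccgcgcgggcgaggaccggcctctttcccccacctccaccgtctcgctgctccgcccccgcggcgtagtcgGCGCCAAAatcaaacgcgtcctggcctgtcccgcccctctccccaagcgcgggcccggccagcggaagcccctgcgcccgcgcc
FANCG: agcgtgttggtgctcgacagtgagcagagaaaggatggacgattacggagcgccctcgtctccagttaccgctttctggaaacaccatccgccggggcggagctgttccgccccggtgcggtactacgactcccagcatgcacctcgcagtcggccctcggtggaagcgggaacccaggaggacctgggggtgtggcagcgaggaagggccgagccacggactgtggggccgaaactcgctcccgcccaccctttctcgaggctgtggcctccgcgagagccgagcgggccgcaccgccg
RAD51D: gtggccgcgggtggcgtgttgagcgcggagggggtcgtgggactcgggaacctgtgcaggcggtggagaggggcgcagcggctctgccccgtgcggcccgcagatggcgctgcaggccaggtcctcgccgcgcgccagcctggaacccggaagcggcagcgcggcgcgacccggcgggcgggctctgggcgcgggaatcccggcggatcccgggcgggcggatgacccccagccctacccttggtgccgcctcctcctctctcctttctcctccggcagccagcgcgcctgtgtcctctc
FANCC: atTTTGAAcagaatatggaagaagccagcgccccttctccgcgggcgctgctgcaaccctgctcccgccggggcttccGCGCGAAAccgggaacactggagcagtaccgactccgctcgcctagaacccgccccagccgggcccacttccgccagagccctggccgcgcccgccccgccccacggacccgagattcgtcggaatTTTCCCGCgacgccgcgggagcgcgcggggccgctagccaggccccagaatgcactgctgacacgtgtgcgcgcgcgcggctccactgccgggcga

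Of the 32 genes, 29 had a window in the table, and FANCI, NBN and RAD54B had none. An E2F-type match of any of the 3 spellings stood in 6 of 29 member windows (20.7%), namely those of EXO1, GEN1, FANCD2, MND1, XRCC2 and FANCC, and in 2.74% of all 35116 windows. It stood in 2 of 10 windows of members at least 1.5-fold lower without glutamine and in 2 of 10 windows of the other tested members. TTTGAA was found in 3 member windows (10.3%, against 15.2% of all) and CCAAT in 11 (37.9%, against 34.6%). The 34 matches in member windows did not overlap each other. In the sequences above, UBE2T held a pair of CCAAT matches and a TTTGAA match, MND1 held TTTGGCGC on the opposite strand, and FANCC, whose level did not pass the test in any comparison, held more E2F-type matches than the others shown. FANCG and RAD51D held no match to these letters.

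**Figure D1:**
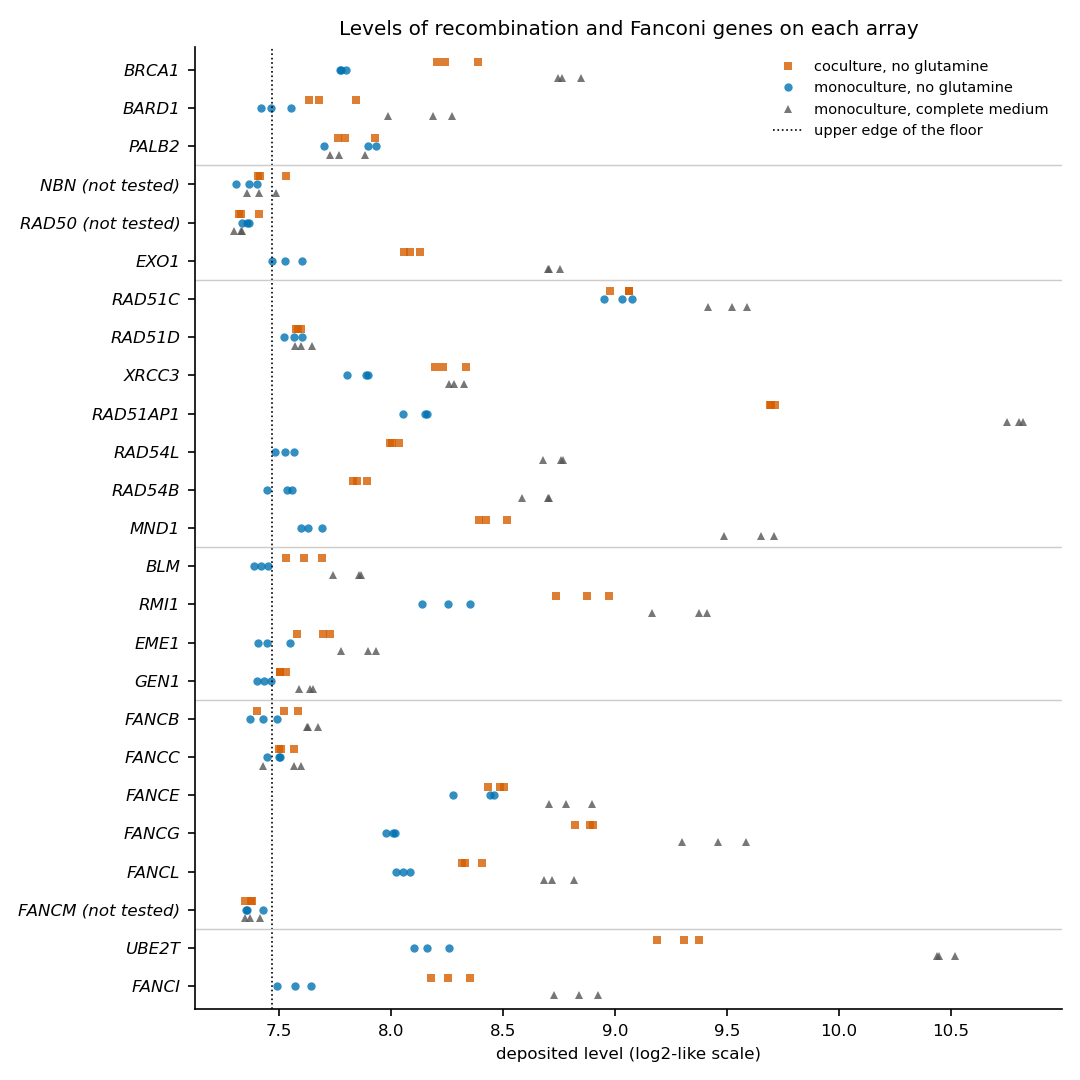
Level of each of the 25 recombination and Fanconi genes with a probe on each array (x axis, deposited log2-like scale), for coculture without glutamine (squares), monoculture without glutamine (circles) and monoculture in complete medium (triangles); grey lines part the roles and the dotted line is the upper edge of the floor at 7.47. For RAD51AP1 the coculture arrays (9.69 to 9.71) lie apart from the arrays without glutamine (8.05 to 8.16) and in complete medium (10.75 to 10.82), while the 3 groups overlap for PALB2, RAD51D and FANCC.

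Among BRCA1 and its partners, BRCA1 itself, the ubiquitin ligase and scaffold of the pathway, stood at 7.77, 7.80 and 7.78 without glutamine, against 8.85, 8.76 and 8.75 in complete medium. The groups did not overlap, and BRCA1 was 2.01-fold lower (log2 difference -1.004, SE 0.060; adjusted p = 1.63e-11). BARD1, its obligate partner in the ligase, was 1.59-fold lower (log2 difference -0.67, SE 0.067). PALB2, which links BRCA1 to BRCA2, did not follow: it stood at 7.70, 7.90 and 7.93 without glutamine, against 7.77, 7.88 and 7.73 in complete medium. These groups overlapped, with a log2 difference of 0.05 (95% interval -0.08 to 0.18; adjusted p = 0.536).

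Of the genes for break sensing and end trimming, EXO1 was the only one tested. This exonuclease, which trims the 5′ strand at breaks and also serves mismatch repair, had levels of 7.47, 7.53 and 7.60 without glutamine, against 8.75, 8.70 and 8.71 in complete medium. It was 2.28-fold lower (log2 difference -1.19, SE 0.054; adjusted p = 2.07e-13), from non-overlapping groups, with the lowest array at the floor's edge. NBN and RAD50, subunits of the complex that first binds breaks, had means from 7.32 to 7.45 in the 3 groups, at the floor, so these probes could show neither a fall nor a rise below it. MRE11, the nuclease of that complex and no list member, was measurable and was 1.54-fold lower.

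The genes of strand exchange ranged from RAD51AP1, with the largest difference of the tested members, to RAD51D, which was not called. RAD51AP1, which promotes the pairing of DNA strands, had levels of 8.16, 8.05 and 8.15 without glutamine, against 10.81, 10.82 and 10.75 in complete medium (log2 difference -2.67, SE 0.060; adjusted p = 2.84e-18). MND1, known chiefly from meiosis as a partner of PSMC3IP, stood at 7.60, 7.63 and 7.69 without glutamine, against 9.65, 9.71 and 9.49 in complete medium (log2 difference -1.98, SE 0.066). In both cases the groups lay more than 1 log2 unit apart. The DNA translocase RAD54L, which acts in strand exchange, stood at 7.57, 7.48 and 7.53 without glutamine and 8.68, 8.77 and 8.76 in complete medium (2.31-fold lower). Its relative RAD54B stood at 7.44, 7.56 and 7.53 without glutamine and 8.70, 8.58 and 8.71 in complete medium (2.22-fold lower). Both translocase genes came down to near the floor without glutamine.

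RAD51C, RAD51D and XRCC3, which assist strand exchange in shared complexes, differed among themselves. RAD51C and XRCC3, which form a complex with each other, were 1.40-fold and 1.34-fold lower without glutamine, with log2 differences of -0.49 (SE 0.064) and -0.43 (SE 0.056). RAD51D, which pairs with XRCC2, stood at 7.60, 7.52 and 7.57 without glutamine, against 7.57, 7.60 and 7.65 in complete medium. Its groups overlapped (log2 difference -0.04, 95% interval -0.13 to 0.04; adjusted p = 0.385). RAD51D lay near the floor in every group, where a difference is hard to detect.

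Of the genes for separating joined DNA molecules, RMI1 and EME1 were lower, and so were BLM and GEN1, which passed the filter only through the groups where they were higher. RMI1, which works with the helicase BLM and a topoisomerase to dissolve double junctions, stood at 8.35, 8.14 and 8.25 without glutamine, against 9.17, 9.38 and 9.41 in complete medium (2.10-fold lower; log2 difference -1.07, SE 0.078). The arrays of RMI1 spread more than those of most members, yet the groups did not overlap. BLM and EME1, a partner of the endonuclease MUS81, each had a log2 difference of -0.40 (1.32-fold lower; adjusted p = 5.36e-07 and 2.15e-06), with means at the floor without glutamine. The junction-cutting nuclease GEN1 stood at 7.40, 7.43 and 7.46 without glutamine, against 7.65, 7.64 and 7.59 in complete medium, all close to the floor (log2 difference -0.19, SE 0.038; adjusted p = 0.000206).

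In the Fanconi core complex FANCG, FANCL and FANCE were lower, and so was FANCB, which passed the filter only through the groups where it was higher. FANCG, a scaffold subunit, stood at 7.98, 8.01 and 8.02 without glutamine, against 9.59, 9.46 and 9.30 in complete medium, and was 2.72-fold lower (log2 difference -1.45, SE 0.068; adjusted p = 3.19e-13). FANCL, the ubiquitin ligase subunit, was 1.61-fold lower and FANCE 1.32-fold lower. FANCB, which sits with FANCL in the catalytic module, was 1.16-fold lower near the floor (log2 difference -0.21, SE 0.047). FANCC, which forms a subcomplex with FANCE and FANCF, stood at 7.50, 7.50 and 7.45 without glutamine, against 7.60, 7.43 and 7.57 in complete medium. The groups of FANCC overlapped near the floor, with a log2 difference of -0.05 (95% interval -0.14 to 0.04; adjusted p = 0.389).

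Both genes tested from the ubiquitination step itself were lower. UBE2T stood at 8.10, 8.16 and 8.26 without glutamine, against 10.44, 10.52 and 10.45 in complete medium (log2 difference -2.29, SE 0.066; adjusted p = 1.27e-16). FANCI, which is ubiquitinated together with FANCD2, stood at 7.49, 7.64 and 7.57 without glutamine, against 8.92, 8.84 and 8.73 in complete medium (2.40-fold lower; log2 difference -1.26, SE 0.065). The groups did not overlap for either gene. USP1, the enzyme that removes this ubiquitin and no list member, was 2.26-fold lower.

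The next comparison was between coculture and monoculture under deprivation. These groups differ in the fibroblasts and in the inserts that held them from day 1 on. The labels name no insert for the monocultures, so fibroblasts and inserts cannot be told apart. Most members that had fallen without glutamine were higher in coculture, and none was lower. RAD51AP1 was 2.99-fold higher in coculture, UBE2T 2.17-fold and the Fanconi scaffold FANCG 1.82-fold higher. Of 22 tested members, 15 were higher and 0 lower, where 27.8% of all tested genes were called, 12.7% higher and 15.1% lower. The arrays of 16 members lay wholly above those of monoculture (18.6% of all tested genes) and those of 0 members wholly below (21.3%). Past 1.5-fold, 6 members were higher against 1.76% of all tested genes, and 0 were lower against 0.829%. The median log2 difference was 0.321 over the tested members and -0.0095 over all tested genes. BLM, GEN1 and FANCB passed the filter although their means in monoculture without glutamine lay under it. These counts and medians are thus descriptions of the genes that passed. This comparison uses the same monoculture arrays without glutamine as the one before, so a low value on those arrays enters both.

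RAD51AP1 of strand exchange, UBE2T of the ubiquitination step and FANCG of the core complex had the largest differences of the tested members. RAD51AP1 stood at 9.70, 9.69 and 9.71 in coculture, above the 8.16, 8.05 and 8.15 of monoculture (log2 difference 1.58, SE 0.060; adjusted p = 1.59e-13). UBE2T stood at 9.31, 9.19 and 9.37 in coculture, against 8.10, 8.16 and 8.26 in monoculture (log2 difference 1.11, SE 0.066; adjusted p = 1.34e-10). FANCG stood at 8.89, 8.82 and 8.90 in coculture, against 7.98, 8.01 and 8.02 in monoculture (log2 difference 0.87, SE 0.068). For all 3 genes every coculture array lay above every monoculture array without glutamine. MND1 stood at 8.52, 8.39 and 8.43 in coculture and 7.60, 7.63 and 7.69 in monoculture (1.75-fold higher). FANCI stood at 8.35, 8.26 and 8.18 in coculture and 7.49, 7.64 and 7.57 in monoculture (1.62-fold higher). RMI1 stood at 8.97, 8.74 and 8.88 in coculture and 8.35, 8.14 and 8.25 in monoculture (1.53-fold higher). These 6 genes, of strand exchange, junction dissolution, the core complex and the ubiquitination step, made up the members past 1.5-fold.

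Smaller differences were found for BRCA1 (1.41-fold higher), EXO1 (1.47-fold), RAD54L (1.40-fold), XRCC3 (1.31-fold), RAD54B (1.27-fold), FANCL (1.23-fold), EME1 (1.15-fold) and BLM (1.14-fold). Of these, BLM passed the filter only through the groups where it was higher. BRCA1 stood at 8.24, 8.39 and 8.20 in coculture, against 7.77, 7.80 and 7.78 in monoculture without glutamine. EXO1 stood at 8.13, 8.09 and 8.06 in coculture, against 7.47, 7.53 and 7.60 in monoculture. Neither gene's groups overlapped. BARD1 was 1.18-fold higher (log2 difference 0.24, SE 0.067; adjusted p = 0.0101), but its call rested on single arrays. Its adjusted p was 0.0532 without monoculture array 2 and 0.0715 without coculture array 1, and ranged from 0.00292 to 0.0715 over all settings.

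The 7 members not called in coculture were PALB2, RAD51C, RAD51D, GEN1, FANCB, FANCC and FANCE. GEN1 arrays did not overlap between the groups, but its log2 difference of 0.08 had an adjusted p of 0.124. Among them FANCE and RAD51C had been lower without glutamine at levels well above the floor. FANCE had a log2 difference of 0.08 in coculture (95% interval -0.06 to 0.22; adjusted p = 0.402), so a rise of the size of its fall lay outside the interval. RAD51C stood at 9.06, 8.98 and 9.06 in coculture, against 9.07, 9.03 and 8.95 in monoculture without glutamine and 9.59, 9.42 and 9.52 in complete medium. Its difference in coculture was 0.02 (95% interval -0.12 to 0.15; adjusted p = 0.897). RAD51C, XRCC3 and FANCE are singled out here after their values were seen. XRCC3, the partner of RAD51C, stood at 8.23, 8.34 and 8.19 in coculture, against 7.90, 7.89 and 7.80 in monoculture without glutamine and 8.28, 8.33 and 8.26 in complete medium.

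Probes of the same gene did not always give the same answer, and RAD51C is the clearest case. Of its 4 probes, the brightest gave the log2 difference of 0.02 in coculture, the second 0.39 (SE 0.064; adjusted p = 0.000147 among single probes), the third 0.11 (adjusted p = 0.269), and the last lay below the filter. Without glutamine these 3 probes were all lower, by -0.49, -0.69 and -0.52. Which RAD51C transcripts each probe detects was not tested. Both BRCA1 probes gave nearly the same differences, -1.004 and -0.924 without glutamine, and both MND1 probes were lower, by -1.98 and -1.10. The second EXO1 probe gave -0.33 without glutamine and 0.09 in coculture (adjusted p = 0.145 among single probes), near the floor. The second GEN1 probe gave 0.04 without glutamine (adjusted p = 0.46), so that the small fall of GEN1 rests on its brightest probe.

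**Figure D2:**
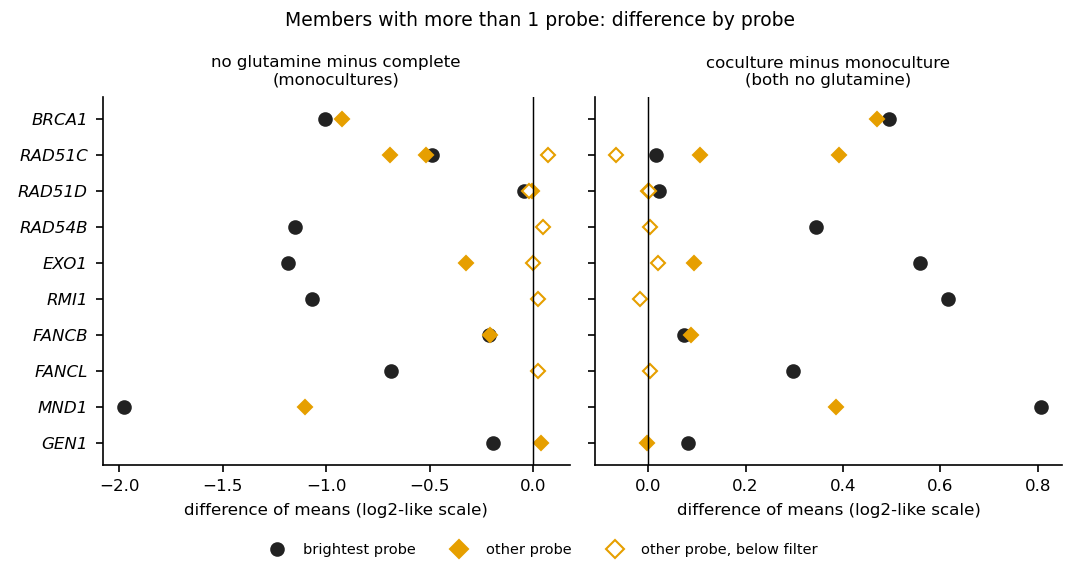
Difference of group means for every probe of the 10 members with more than 1 probe (x axes, log2-like scale), without glutamine minus complete medium on the left and coculture minus monoculture without glutamine on the right; circles are the brightest probes, filled diamonds other probes and open diamonds other probes below the filter. The 3 brighter RAD51C probes agree on the left (-0.69 to -0.49) and spread on the right (0.02 to 0.39).

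Coculture without glutamine was then set against monoculture in complete medium, to ask how far the genes still differed. These 2 groups differ in glutamine, in the fibroblasts and in their inserts. Most members stayed lower in coculture. Of 22 tested members, 18 were lower and 0 higher, where 43% of all tested genes were called, 20.7% lower and 22.3% higher. The coculture arrays lay wholly below those of complete medium in 18 members (24.8% of all tested genes) and wholly above in 0 (27.2%). Past 1.5-fold, 6 members were lower against 3.54% of all tested genes, and 0 were higher against 2.87%. The median log2 difference was -0.442 over the tested members and 0.00765 over all tested genes.

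The largest of these differences were those of UBE2T, MND1, RAD51AP1, RAD54B and RAD54L. UBE2T had 9.31, 9.19 and 9.37 in coculture, against 10.44, 10.52 and 10.45 in complete medium, 2.26-fold lower (log2 difference -1.18, SE 0.066; adjusted p = 1.51e-11). MND1 had 8.52, 8.39 and 8.43 in coculture, against 9.65, 9.71 and 9.49 in complete medium, 2.25-fold lower. RAD51AP1 had 9.70, 9.69 and 9.71 in coculture, against 10.81, 10.82 and 10.75 in complete medium, 2.13-fold lower. In none of the 3 did the groups overlap. RAD54B had 7.85, 7.89 and 7.83 in coculture, against 8.70, 8.58 and 8.71 in complete medium, 1.75-fold lower. RAD54L had 7.997, 8.038 and 8.004 in coculture, against 8.68, 8.77 and 8.76 in complete medium, 1.65-fold lower. EXO1, at 1.55-fold lower, was the last of the 6 past 1.5-fold, with BRCA1 at 1.42-fold, FANCG at 1.49-fold and FANCI at 1.48-fold just short of it.

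XRCC3 was the only member called lower without glutamine that was not called in this comparison. Its log2 difference was -0.03 (95% interval -0.15 to 0.08; adjusted p = 0.677), and its arrays in coculture overlapped those in complete medium. RAD51C, its partner, had a log2 difference of -0.47 (SE 0.064; adjusted p = 4.88e-06). PALB2, RAD51D and FANCC were called in none of the 3 comparisons. The smallest called differences were those of GEN1 (-0.11, adjusted p = 0.0214) and FANCB (-0.14, adjusted p = 0.0198), both near the floor, and neither call was stable. The adjusted p ranged from 0.0183 to 0.337 for GEN1 and from 0.00491 to 0.153 for FANCB over the settings other than single probes. For GEN1 it was 0.0714 without complete-medium array 1, 0.0538 without complete-medium array 2, 0.0619 without coculture array 1 and 0.0614 without coculture array 3. For FANCB it was 0.066 without complete-medium array 3 and 0.153 without coculture array 3.

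For the 12 members that were at least 1.5-fold lower without glutamine, the coculture level was also placed between the monocultures, with the mean without glutamine as 0% and that in complete medium as 100%. FANCG stood highest, at 60.0% ± 2.96 (SD over the 3 coculture arrays), and RAD51AP1 lay close to it at 59.1% ± 0.409. RAD54B stood lowest, at 30.0% ± 2.92, below its relative RAD54L at 40.2% ± 1.81, and their arrays did not overlap on this scale. UBE2T lay at 48.6% ± 4.17, BRCA1 at 49.3% ± 9.75 and EXO1 at 46.9% ± 3.14, which did not differ beyond their spread. The median of the 12 was 47.8%. The positions carry no test, share the monoculture arrays, and shift where the low end lies near the floor.

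**Figure D3:**
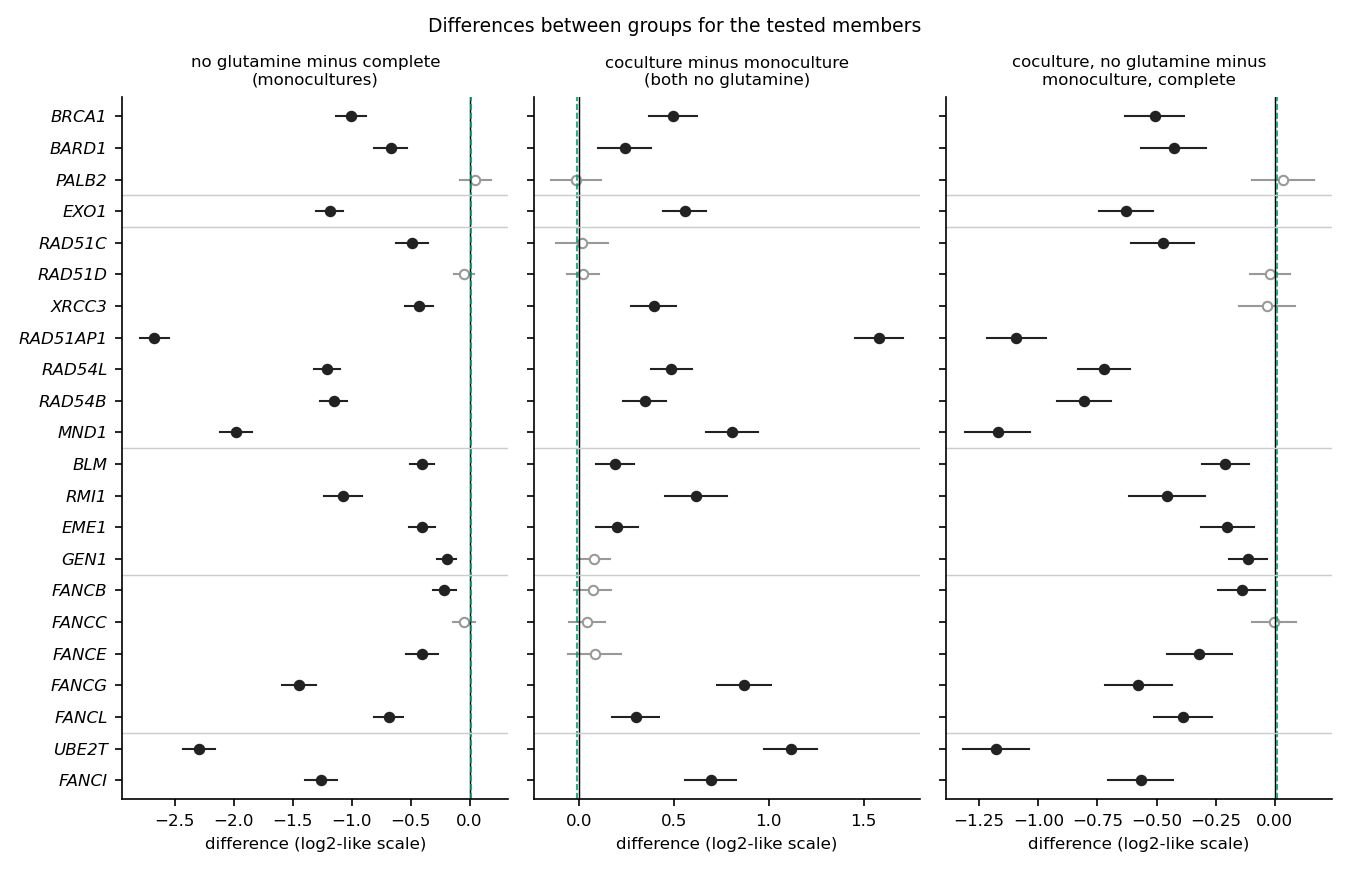
Difference between groups for the 22 tested members in the 3 comparisons (x axes, log2-like scale, with their own ranges), with 95% intervals of the fit; filled circles were called at an adjusted p under 0.05, open circles were not, and the dashed line is the median of all tested genes. RAD51AP1, MND1 and UBE2T lie farthest from 0 in the left panel (-2.67 to -1.98), and 21 of 22 coculture means lie between the means of the monocultures.

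The neighbouring pathway genes were less uniform than the members. Members and lists were chosen with earlier results of these data known, so this contrast only describes the lists as drawn. Of 21 other recombination genes, 11 fell (52.4%) and 3 rose (14.3%) without glutamine, with a median log2 difference of -0.179. Of all tested genes 24.3% fell and 30% rose. RPA3, a subunit of the protein that coats single-stranded DNA, was 3.15-fold lower, RPA1, its large subunit, 1.73-fold lower, and RMI2, the partner of RMI1, 2.10-fold lower. ZSWIM7, which also acts in recombination, went the other way and was 1.71-fold higher. Of 12 other Fanconi pathway genes, 3 fell (25.0%, near the share over all tested genes) and 5 rose (41.7%), with a median of 0.0787. The DNA-binding partner CENPX was 1.83-fold and CENPS 1.25-fold lower, next to USP1, while FAAP100, which sits with FANCB and FANCL in the core complex, was 1.46-fold higher.

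Genes of damage signalling, end joining and nucleotide excision repair also went both ways without glutamine, while called mismatch repair genes were all lower. Of 15 damage signalling genes, 7 fell (46.7%) and 3 rose (20.0%), against 24.3% and 30% of all tested genes. The checkpoint kinase gene CHEK1 was 2.54-fold, the checkpoint adaptor TOPBP1 1.93-fold and the histone H2AX 1.88-fold lower. BABAM2, of a BRCA1-containing complex, was 1.86-fold higher. Of 11 end joining genes, 7 fell (63.6%) and 2 rose (18.2%). POLQ, the polymerase of an end joining route that uses trimmed ends, was 2.19-fold lower and PAXX 1.82-fold, while XRCC4 and XRCC6, of the classical route, were 1.35-fold and 1.23-fold lower. Of 4 mismatch repair genes, 3 fell, led by MSH6 (1.98-fold), with PMS1 and MSH3 at 1.26-fold and 1.19-fold lower. Of 10 nucleotide excision repair genes, 5 fell and 2 rose. The damage sensor XPC was 2.66-fold higher, and its partner CETN2 1.45-fold higher, while RAD23B, another partner of XPC, was 1.53-fold and ERCC5, a nuclease, 1.22-fold lower. No test was made between these lists and the members.

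**Figure D4:**
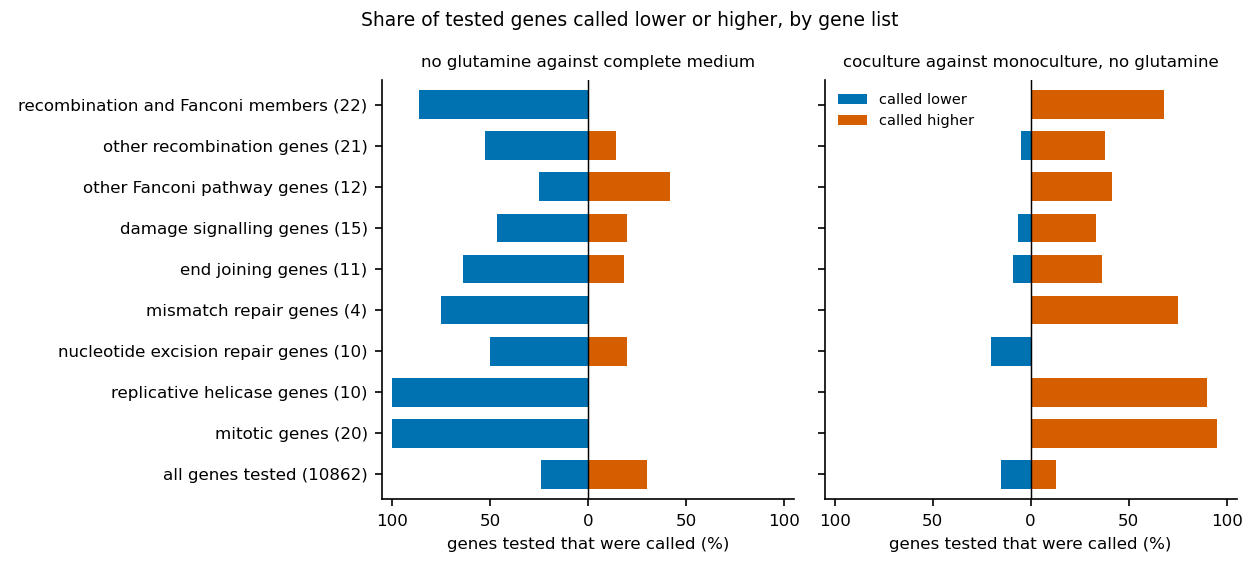
Share of the tested genes of each list (number tested in brackets) called lower (bars to the left) or higher (bars to the right) at an adjusted p under 0.05, without glutamine against complete medium and in coculture against monoculture without glutamine. The members (86.4% lower on the left, 68.2% higher on the right) lie between the replicative helicase and mitotic genes and the remaining repair lists on the left. All tested genes (24.3% lower and 30% higher on the left, 15.1% lower and 12.7% higher on the right) are the background.

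In coculture, 12.7% of all tested genes were higher and 15.1% lower. Of the other recombination genes 8 were higher (38.1%) and 1 lower (4.76%), and of the other Fanconi genes 5 were higher (41.7%) and 0 lower. RPA3 was 1.65-fold higher in coculture and USP1 1.75-fold higher. Of the mismatch repair genes 3 of 4 were higher and 0 lower, of the damage signalling genes 5 were higher and 1 lower, and of the end joining genes 4 were higher and 1 lower. Of the nucleotide excision repair genes 0 were higher and 2 lower (20.0%), with XPC 1.58-fold lower in coculture. Genes of DNA copying and division moved with the members. Without glutamine, 10 of 10 tested replicative helicase genes (median log2 difference -1.67) and 20 of 20 mitotic genes (-2.58) were lower, against 24.3% of all tested genes. In coculture 9 and 19 of them were higher (medians 0.677 and 0.856). The part of cell cycle distribution in the members' differences was not tested.

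Fibroblast RNA was looked for in coculture, since fibroblasts had shared the wells. Of 12 fibroblast markers, 8 were below the filter, and COL1A2, COL3A1, DCN, LUM, PDGFRA, PDGFRB, POSTN and THY1 had means of at most 7.47 in coculture, at the floor. The mean level over the 12 markers was 7.775 to 7.802 on the coculture arrays, 7.779 to 7.787 on the monoculture arrays without glutamine and 7.764 to 7.767 in complete medium. FAP and FBLN1 were higher in coculture than in monoculture without glutamine, by 0.24 and 0.39 log2 units, and both were higher still in complete medium without any fibroblasts. ACTA2, an actin of contractile cells, was lower in coculture by -0.60, and COL1A1 differed by 0.08 (adjusted p = 0.344). Of the leukocyte markers only CD68, which many cell types express in lysosomes, was above the filter.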

How the data were processed

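RNA of 9 HeyA8 samples was measured on Illumina arrays. The deposited values are on a log2 or log2-like scale, 1 per probe and array, for 34476 probes; per the submitters' processing notes the authors used lumi, while version, settings and background correction are not given. Precision is limited by there being 3 arrays a group. The platform annotation gave the gene names: 26366 had 1 symbol, 3 several and 8107 none, and of the named ones 26333 matched RefSeq by gene identifier with 0 symbols changed. Each gene took its brightest probe, and 10862 of 18354 genes passed the filter, a probe mean above the median of all probe means (7.46). The test was limma 3.58.1 (R 4.3.3; lmFit, then eBayes with a variance trend) over all 9 arrays, 1 mean per group, two-sided, with Benjamini-Hochberg adjustment over all tested genes and calls at 0.05. Tables and plots used Python 3.11.15, pandas 2.3.3, numpy 2.4.6 and matplotlib 3.10.9. Members and lists were chosen with earlier results of these data known. Full array values were given by a rule: in each of 6 role groups the members with the largest and smallest difference without glutamine, the 5 largest of each comparison, and any member called against the common direction; of other lists at most 4 called genes with the largest difference without glutamine. MRE11 and the genes said to be singled out, lie outside it. Alternatives were no filter, a stricter filter, the mean of a gene's probes, renormalization, no variance trend, fits of 2 groups, the replicate number as a block, each array left out, and, added after seeing the data, every probe tested alone. Same-numbered arrays did not deviate together (correlations of deviations from -0.2593 to 0.2130), so the numbers were not taken to pair samples.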

Additional observations from a re-analysis of the deposited data

How the results depend on the processing

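The counts of called members kept their direction and stayed within 1.5 times the reported ones in all alternatives run. The total counts over all genes also stayed within 1.5 times, but past 1.5-fold without glutamine the mean of a gene's probes gave 580 lower and 547 higher genes, against 685 and 714 as reported. Without glutamine 19 members were called with each array left out, and 14 of 14 tested under the stricter filter. In coculture, leaving out arrays gave 14 to 15 called members (2463 to 3009 of all tested genes), and against complete medium 16 to 18 (4145 to 4801). With the replicate number as a block, 19, 15 and 18 members were called in the 3 comparisons, as without it, and the block changed no member's call. Over all tested genes the block gave 2608 lower and 3194 higher, 1584 lower and 1317 higher, and 2202 lower and 2361 higher. With the mean of a gene's probes, 8 members were at least 1.5-fold lower without glutamine, 5 higher in coculture and 4 lower against complete medium, where dim probes enter the mean. Differences of uncalled members turned sign when arrays were left out. In coculture PALB2 lay between -0.0856 and 0.0301 and RAD51C between -0.0174 and 0.0447, and against complete medium PALB2 lay between -0.0131 and 0.0803 and FANCC between -0.0565 and 0.0274. The second GEN1 probe, alone, gave 0.0393 without glutamine, -0.0023 in coculture and 0.0370 against complete medium, all opposite in sign to the brightest probe. Without the variance trend the adjusted p against complete medium was 0.052 for GEN1 and 0.0519 for FANCB. Levels at or near the floor limit what can be said of NBN, RAD50, FANCM, RAD51D and FANCC. The same holds for BLM, EME1, GEN1 and FANCB, whose means without glutamine lay at or under the floor's upper edge.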
